A study of Homo sapiens with 12 samples.

Results

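The MYC network is described here through 10 genes, picked by their symbols from a count table of 58735 genes: MYC, its partner MAX, the MAX-binding repressors MXD1, MXD3, MXD4, MXI1 and MNT, the related partner MLX, and ODC1 and NCL, both known as direct targets of MYC. All 10 were among the 20821 genes with enough counts to be tested. The transcripts were measured by RNA-seq in K562, a human erythroleukemia line in which the fusion kinase BCR-ABL1 is active. Cells received DMSO or 0.1 µM nilotinib, an inhibitor of that kinase, and were then left as mock samples or given 50 µM hemin, an inducer of erythroid differentiation, for 24 h. The 4 groups were mock DMSO and hemin DMSO, both without the drug, and mock nilotinib and hemin nilotinib, both with it. Each held 3 biological replicates, with total counts of 33457078 to 50506990 per library. By the study's methods the drug was given first and mock cells were collected when hemin was added, so the hemin groups were also 24 h older and, where nilotinib was present, had been in the drug for longer. Hemin and this added time cannot be told apart in any comparison of hemin with mock. The same holds for any difference in the effect of nilotinib between hemin and mock cells. K562 is 1 cell line, so the replicates are cultures of the same line and not different patients.

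MYC binds DNA only as a heterodimer with MAX, at the E-box CACGTG, and recruits coactivators that raise transcription of genes for ribosome production, metabolism and growth. The MXD proteins and MNT pair with the same MAX and bind the same motif, but bring the SIN3 and histone deacetylase corepressor. MLX is a MAX-like protein that pairs with some of the MXD proteins, with MNT and with the glucose-sensing factors MLXIP and MLXIPL. In many lineages, blood cells among them, differentiation is accompanied by a switch from MYC to MXD proteins on MAX. In cells with BCR-ABL1, MYC is known as a gene kept active by the kinase. ODC1 makes the first enzyme of polyamine synthesis, and NCL makes nucleolin, an abundant nucleolar protein of ribosomal RNA production.

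In GRCh38, the build of the count table, the genes lie apart from each other. MAX is at chr14:65006174-65102695, MXD1 at chr2:69897688-69942945, MXD3 at chr5:177301461-177312757, MXD4 at chr4:2247432-2262294 and MXI1 at chr10:110207605-110287365. MNT (chr17:2384060-2401118) and MLX (chr17:42567068-42573239) share a chromosome, as do ODC1 (chr2:10439968-10448504), NCL (chr2:231453531-231483641) and MXD1. The motif of the network is itself present in front of some of its members. RefSeq promoter entries, 250 bases before to 50 after a transcript start in GRCh38.p14, were used for 9 of the 10 genes, all but MYC. CACGTG, which reads the same on both strands, occurred in those of 4 of the 9 genes: MLX, MNT, MXD4 and ODC1. Over all 27305 genes with an entry used the share was 8.77%, and over the 35116 single entries used 7.26%. Entries on the chromosome of MYC were left out, for MYC and for every other gene there. The entries of MAX, MXD1, MXD3, MXI1 and NCL did not hold these letters, which says nothing of sites outside the window. The 30 bases around each match are shown because the motif is the one that MYC and the MXD proteins are known to share, though binding was not measured here; they are written 5′ to 3′ on the gene's own strand with the E-box in capitals:
MLX (chr17:42567038-42567067, plus strand): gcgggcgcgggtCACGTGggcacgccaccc
MNT (chr17:2401236-2401265, minus strand): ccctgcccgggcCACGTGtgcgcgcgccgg
MXD4 (chr4:2262330-2262359, minus strand): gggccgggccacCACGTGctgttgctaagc
ODC1, upstream site (chr2:10448024-10448053, minus strand): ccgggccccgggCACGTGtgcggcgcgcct
ODC1, downstream site (chr2:10447990-10448019, minus strand): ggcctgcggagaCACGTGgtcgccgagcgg
Counted from the annotated start, the first base of the motif lay at -50 in MLX, -193 in MNT, -238 in MXD4, and -29 and 6 in ODC1. The last of these lies inside the transcribed first exon. As the values below show, the 4 genes with the motif did not move as 1 group: MXD4 was higher with nilotinib, MLX and ODC1 were lower with nilotinib in the absence of hemin, and MNT was low in hemin DMSO alone.

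CPM below are counts divided by library size after edgeR's TMM scaling, and RPKM are these values per kilobase of exon, used where genes are compared with each other. The length is that of all annotated exons of a gene together, not of the transcript expressed. Orders, ratios and shares between genes depend on that choice. Differences are log2 fold changes with their SE, and adjusted p-values are from edgeR's quasi-likelihood test over all 20821 genes, called at 0.05. Hemin nilotinib replicate 1 differed from replicate 3 of its group by a chi-square of 223.7 per degree of freedom, where the pairs of mock DMSO libraries lay between 12.52 and 37.89. Pairs of mock nilotinib libraries lay between 14.48 and 62.54, and pairs of hemin DMSO libraries between 45.25 and 104.4. Results whose call, or fold by over 1.5 times, rests on hemin nilotinib replicate 1 are given with and without it. As a check of the cells, the summed level of 7 erythroid markers was 931 to 1430 CPM in mock DMSO, 6100 to 7820 CPM in mock nilotinib, 7180 to 12800 CPM in hemin nilotinib and 863 to 946 CPM in hemin DMSO. Most of the sum in the nilotinib groups was of the globin genes HBZ and HBG1, with averages of 2910 and 1640 CPM in mock nilotinib. Each of the 7 markers averaged more in a nilotinib group than in its DMSO group, although GATA1 did not pass with nilotinib alone (0.34, adjusted p = 0.0572). In hemin DMSO the factors KLF1, TAL1 and GATA1 averaged 24.0, 88.7 and 158 CPM, below their 284, 244 and 296 CPM in mock DMSO, while HBZ and HBG1 averaged more. The part of these markers in the results below was not tested. Of 12 markers of T cells, B cells, monocytes and fibroblasts, 4 stayed under 1 CPM in every library and the highest value was 37.2 CPM. That value was of LYZ, which made up most of the monocyte sum and averaged 31 and 24.7 CPM in the mock and hemin DMSO groups and 3.39 and 2.39 CPM in the nilotinib groups. The other monocyte markers, CD14 and CSF1R, averaged under 1 CPM in every group but hemin DMSO, where they averaged 9.4 and 1.7 CPM. The fibroblast markers summed to 8.8 to 14.4 CPM in mock DMSO, 13.6 to 22.9 CPM in mock nilotinib, 25.7 to 33.4 CPM in hemin DMSO and 9.74 to 22.8 CPM in hemin nilotinib. In RNA from whole cultures, fewer cells of a kind and less transcript per cell cannot be told apart.

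MYC was the member that fell most without hemin. Its level was 233, 279 and 292 CPM in the mock DMSO libraries and 62.8, 60.1 and 54.5 CPM in the mock nilotinib libraries. Under hemin it was 213, 218 and 242 CPM with DMSO and 85.3, 85.1 and 73.3 CPM with nilotinib. Every library without nilotinib was thus above every library with it. Nilotinib lowered MYC 4.53-fold without hemin (log2 fold change -2.18, SE 0.132, adjusted p = 3.67e-09). With hemin the difference was 2.76-fold (-1.47, SE 0.129, adjusted p = 8.1e-08). The test of the interaction gave 0.71 (SE 0.179, adjusted p = 0.00721), so that the fall was smaller in the presence of hemin. Hemin alone gave a change of -0.26, with an interval of -0.52 to 0.01 and an adjusted p of 0.0972, and the libraries of the 2 groups overlapped; it passed without mock DMSO replicate 1 (-0.42), without hemin nilotinib replicate 3 (-0.31) and without composition factors (-0.49). Under nilotinib hemin gave 0.46 (SE 0.127, adjusted p = 0.0443), 81.2 ± 6.9 CPM against 59.1 ± 4.21 CPM (SD, n = 3). That call was lost in 15 of 22 other settings, where adjusted p reached 0.231. They include leaving out any mock DMSO or mock nilotinib library, hemin DMSO replicate 3, or hemin nilotinib replicate 1 or 2.

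MAX, the partner that MYC shares with the MXD proteins and MNT, had a narrower range than MYC. Its level was 39.6, 37.4 and 44.0 CPM in mock DMSO, 25.4, 27.1 and 35.7 CPM in mock nilotinib. Under hemin it was 46.3, 58.1 and 56.4 CPM with DMSO and 32.1, 30.8 and 36.5 CPM with nilotinib. In both pairs the nilotinib libraries lay below the DMSO libraries. The fall was 1.37-fold without hemin (-0.46, SE 0.149, adjusted p = 0.0213) and 1.62-fold with hemin (-0.69, SE 0.149, adjusted p = 0.000735). Without hemin it no longer passed when mock DMSO replicate 3 (-0.41), mock nilotinib replicate 1 (-0.36) or mock nilotinib replicate 2 (-0.43) was left out, or with upper-quartile factors (-0.34). Hemin without nilotinib raised MAX 1.33-fold (0.41, SE 0.148, adjusted p = 0.028), but this call was lost without composition factors (0.17). It was also lost, at 0.33 to 0.43, without any 1 of the mock DMSO libraries, hemin DMSO replicates 2 and 3, mock nilotinib replicate 2 or hemin nilotinib replicate 2. The ratio of MYC to MAX in RPKM was 9.83 ± 1.15 in mock DMSO and 3.06 ± 0.714 in mock nilotinib, and 6.22 ± 0.627 and 3.65 ± 0.602 in the corresponding hemin groups (SD, n = 3).

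**Figure D1:**
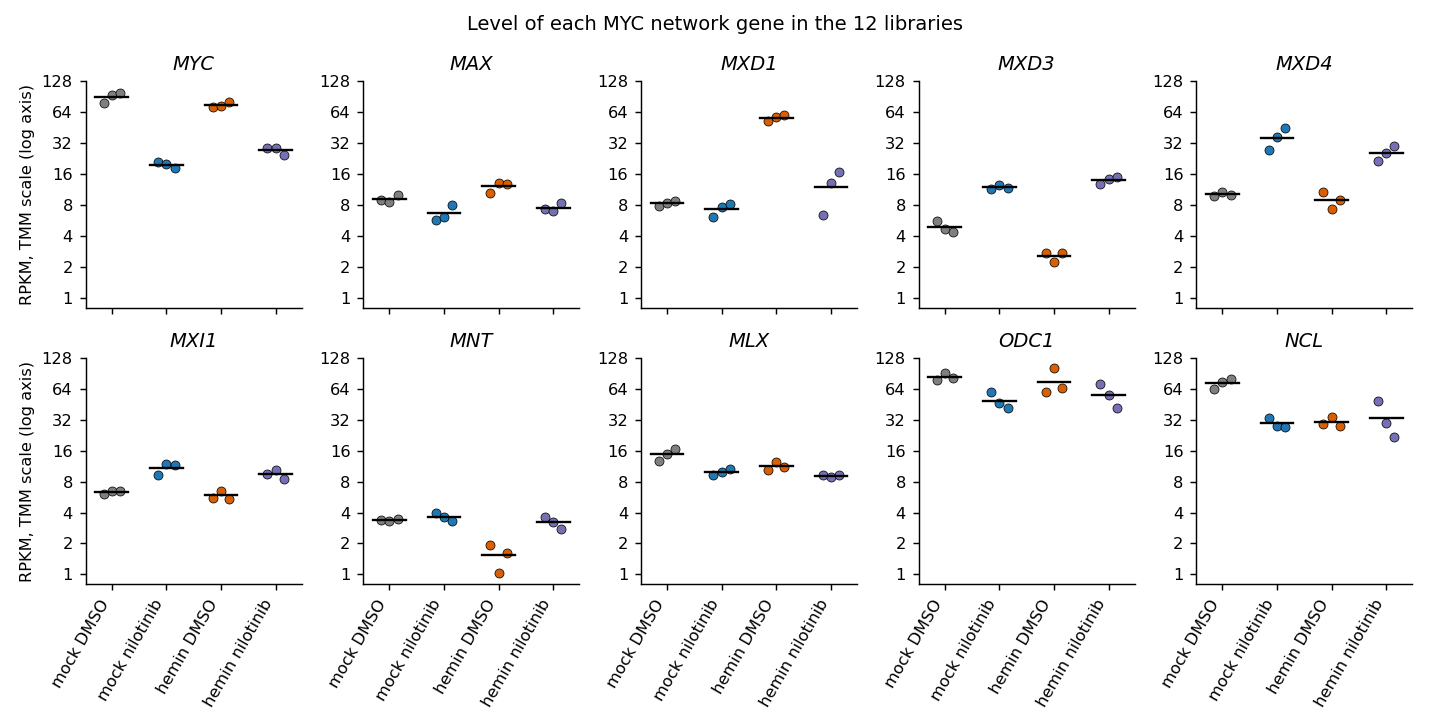
RPKM on the TMM scale, on a log axis, of each of the 10 genes in every library, with 1 panel per gene; points are libraries and bars are means of 3. MYC lies at 18.2 to 28.4 RPKM in the 6 nilotinib libraries and at 70.9 to 97.2 RPKM in the 6 DMSO libraries, while MXD1 is high in hemin DMSO alone.

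The MXD genes did not respond as 1 family. MXD4, whose protein is linked to the quiescent and differentiated state, rose with nilotinib whether or not hemin was present. It was at 68.4, 74.6 and 70.4 CPM in mock DMSO and at 191, 260 and 313 CPM in mock nilotinib. In hemin DMSO it was at 75.7, 51.5 and 62.9 CPM, and in hemin nilotinib at 149, 178 and 211 CPM. The lowest nilotinib library was above the highest DMSO library. The rise was 3.58-fold without hemin (1.84, SE 0.186, adjusted p = 8.83e-07) and 2.83-fold with hemin (1.5, SE 0.184, adjusted p = 3.1e-06), and the interaction of -0.34, with an interval of -0.88 to 0.20, did not pass. MXI1, also known as MXD2, showed the same order on a smaller scale. Its libraries spanned 28 to 30.1 CPM in mock DMSO, 42.7 to 54.3 CPM in mock nilotinib, 38.7 to 47.8 CPM in hemin nilotinib and 25.2 to 30.0 CPM in hemin DMSO. Nilotinib raised it 1.72-fold without hemin (0.78, SE 0.136, adjusted p = 0.000232) and 1.61-fold with it (0.69, SE 0.137, adjusted p = 0.000362). Hemin gave no call for either gene, with 95% intervals of -0.55 to 0.22 for MXD4 and -0.41 to 0.17 for MXI1 without nilotinib. Without composition factors MXI1 was called lower there (-0.36, adjusted p = 0.0196). Under nilotinib MXD4 gave -0.50 with hemin (adjusted p = 0.111), and -0.68 without mock nilotinib replicate 1 (adjusted p = 0.0416).

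MXD3, the member of the family known for being expressed in dividing cells, rose with nilotinib and was lowest in hemin DMSO. Mock DMSO libraries held 28.5, 23.9 and 22.2 CPM and mock nilotinib libraries 59.0, 64.3 and 59.8 CPM. Hemin DMSO libraries held 14.0, 11.5 and 13.8 CPM and hemin nilotinib libraries 65.9, 74.0 and 76.6 CPM. Nilotinib raised MXD3 2.45-fold without hemin (1.29, SE 0.133, adjusted p = 1.11e-06) and 5.5-fold with hemin (2.46, SE 0.14, adjusted p = 7.29e-10), and the interaction of 1.16 passed (SE 0.188, adjusted p = 0.000324). Hemin without nilotinib lowered it 1.90-fold (-0.92, SE 0.135, adjusted p = 3.29e-05), whereas under nilotinib its change of 0.24 did not pass (adjusted p = 0.304). The MXD3 locus is shared: 18% of its exon bases overlap exons of RAB24 on the same strand and 22.5% overlap PRELID1 on the other. The changes of these neighbours with nilotinib under hemin were 0.26 for RAB24, which was not called, and -1.27 for PRELID1, which fell.

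MXD1, classically induced during myeloid differentiation, was the member with the largest change with hemin. Without hemin it lay at 49.6, 52.4 and 55.5 CPM with DMSO and at 38.7, 48.2 and 51.5 CPM with nilotinib, so that those libraries overlapped. In hemin DMSO it reached 334, 360 and 381 CPM, above every other library. In hemin nilotinib it was at 40.4, 82.4 and 106 CPM, with replicate 1 inside the range of the mock groups. Hemin raised MXD1 6.83-fold in the absence of nilotinib (2.77, SE 0.248, adjusted p = 2.42e-07). Nilotinib lowered it 4.69-fold in the presence of hemin (-2.23, SE 0.243, adjusted p = 8.59e-07) but not detectably without hemin (-0.19, interval -0.68 to 0.31, adjusted p = 0.55). The interaction was -2.04 (SE 0.333, adjusted p = 0.000354). Under nilotinib the change with hemin was 0.73 and missed the threshold (adjusted p = 0.0788). Without hemin nilotinib replicate 1 it was 1.03 and passed (adjusted p = 0.000127), and with the replicate number as a block it was 0.67 and passed (adjusted p = 0.0429).

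MNT, the broadly expressed repressor that opposes MYC at shared sites, was, per length, the least abundant member in every group. It was at 29.8, 29.2 and 30.3 CPM in mock DMSO, 34.4, 31.7 and 29.1 CPM in mock nilotinib, 31.6, 28.5 and 24.3 CPM in hemin nilotinib, and 16.8, 8.97 and 14.2 CPM in hemin DMSO. Only in the hemin DMSO group were its libraries apart from all others. Hemin lowered MNT 2.23-fold without nilotinib (-1.16, SE 0.187, adjusted p = 8.08e-05). With hemin present, MNT was 2.11-fold higher under nilotinib (1.08, SE 0.187, adjusted p = 0.000107), and the interaction was 0.98 (SE 0.261, adjusted p = 0.01). Nilotinib without hemin gave 0.09, with an interval of -0.29 to 0.48. In hemin DMSO, then, one MAX-binding repressor was high (MXD1) and another low (MNT). Exons of MNT overlap an uncharacterised gene on the other strand over 12.2% of their bases.

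MLX, the partner that links MXD proteins to the glucose-sensing arm, was highest in mock DMSO. Its level was 54.3, 63.7 and 70.8 CPM there, against 39.4, 42.5 and 44.7 CPM in mock nilotinib, 39.6, 38.1 and 39.5 CPM in hemin nilotinib, and 43.8, 52.7 and 47.4 CPM in hemin DMSO. Both the nilotinib and the hemin libraries lay below the mock DMSO libraries. The fall was 1.49-fold with nilotinib (-0.58, SE 0.127, adjusted p = 0.00163) and 1.31-fold with hemin (-0.39, SE 0.127, adjusted p = 0.0158). The call for hemin was lost without mock DMSO replicate 3 (-0.34), hemin DMSO replicate 1 (-0.32) or hemin DMSO replicate 3 (-0.37), and with upper-quartile factors (-0.27). Nilotinib with hemin gave -0.30 and an adjusted p of 0.0517 although the libraries did not overlap. It passed in 8 of 22 other settings, among them the replicate block (-0.29, adjusted p = 0.0419) and the fit without hemin DMSO replicate 1 (-0.36, adjusted p = 0.0342). Exons of PSMC3IP cover 18.1% of those of MLX on the other strand, and PSMC3IP was called in neither nilotinib comparison.

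**Figure D2:**
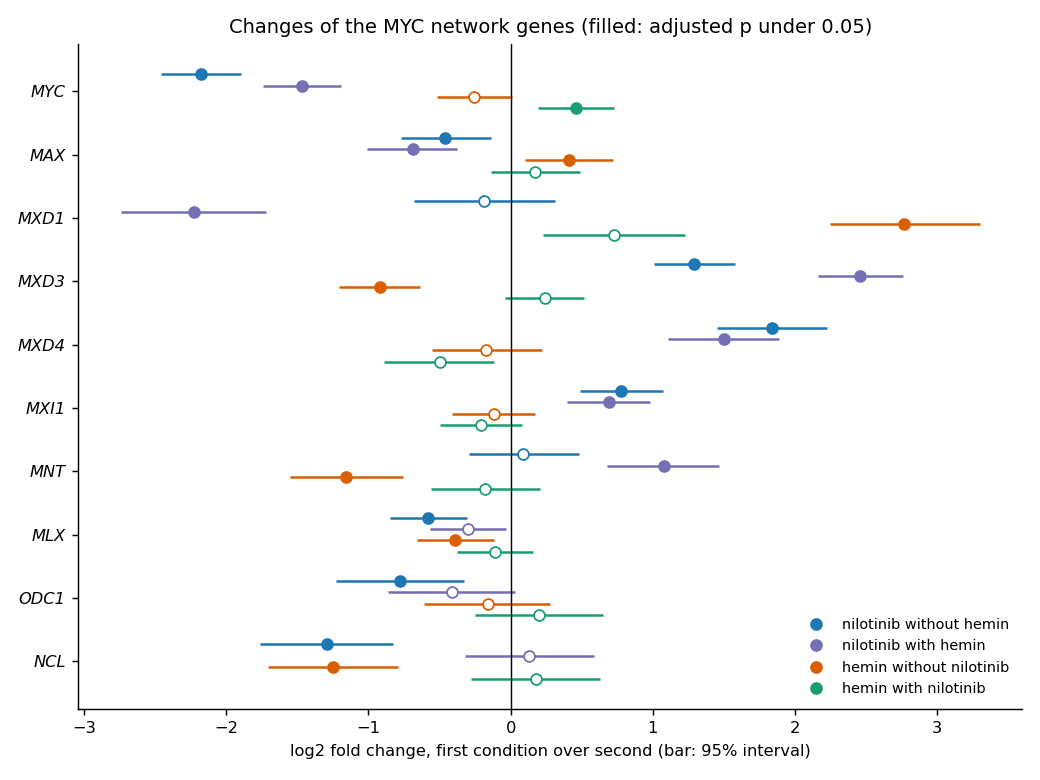
Log2 fold change of each gene in 4 comparisons, first condition over second, with 95% intervals as bars; filled points had an adjusted p under 0.05. MYC and MAX lie left of 0 and MXD3, MXD4 and MXI1 right of 0 in both nilotinib comparisons, while MXD1 lies at 2.77 with hemin alone and at -2.23 with nilotinib under hemin.

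Of the 2 target genes among the members, NCL behaved differently with and without hemin. It was at 440, 512 and 550 CPM in mock DMSO, 230, 194 and 189 CPM in mock nilotinib, 338, 205 and 150 CPM in hemin nilotinib, and 203, 234 and 194 CPM in hemin DMSO. Mock DMSO stood above all other libraries, and the hemin nilotinib libraries were spread over a wider range than any other group of the gene. NCL fell 2.45-fold with nilotinib (-1.29, SE 0.219, adjusted p = 0.000174) and 2.38-fold with hemin (-1.25, SE 0.219, adjusted p = 0.000168). Nilotinib on top of hemin gave 0.13 with an interval of -0.32 to 0.59, and -0.23 without hemin nilotinib replicate 1, neither called. The interaction was 1.43 (SE 0.306, adjusted p = 0.00274) and 1.06 without that replicate (adjusted p = 0.00103). MYC was at 224 ± 15.4 CPM in hemin DMSO, where its change of -0.26 was not called. Whether the levels of NCL and MYC are linked was not tested.

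ODC1 lay at 231, 272 and 244 CPM in mock DMSO and at 176, 137 and 123 CPM in mock nilotinib. In hemin DMSO it was at 176, 298 and 192 CPM, and in hemin nilotinib at 213, 164 and 123 CPM, 2 groups that overlapped. ODC1 fell 1.71-fold with nilotinib alone (-0.78, SE 0.213, adjusted p = 0.00748). With hemin the estimate was -0.41 (interval -0.86 to 0.03, adjusted p = 0.0963). It was -0.62 and passed without hemin nilotinib replicate 1 (adjusted p = 0.0131), and -0.56 and passed without hemin DMSO replicate 1 (adjusted p = 0.0438). Neither hemin comparison was called for ODC1.

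Counted together, 8 of the 10 members were called with nilotinib in the absence of hemin, 3 higher and 5 lower, where 42.5% of all genes tested were called (20.7% higher and 21.8% lower). With hemin present, nilotinib gave 4 higher and 3 lower members, against 64.2% of all genes (32.4% higher and 31.8% lower). Hemin alone gave 2 higher and 4 lower members, against 53.6% of all genes (25.7% higher and 27.8% lower). Hemin under nilotinib gave 1 call, that of MYC, against 5.80% of all genes (3.52% higher and 2.28% lower). With the replicate block, which the same-numbered libraries of these 2 groups warranted, 2 members passed there, MYC and MXD1. The interaction was called for 5 members, MYC, MXD1, MXD3, MNT and NCL, against 30.1% of all genes (17.1% higher and 13.0% lower). The libraries of the 2 groups did not overlap for 8 members with nilotinib alone (61.0% of all genes), 8 with nilotinib under hemin (63.5%), 6 with hemin alone (62.7%) and 2 with hemin under nilotinib (23.3%). By the called counts, the members' share was above that of the whole table with nilotinib alone and near it with nilotinib under hemin and with hemin alone. The members were chosen with earlier results of these data known, so their share is not a result. The comparisons share libraries, since each group enters 2 of them.

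Set on a common scale per length, the order of the members changed with the drug. This order depends on the exon lengths used, such as 3001 bases for MYC and 6929 for NCL. In CPM, NCL averaged 501 and MYC 268 in mock DMSO. In mock DMSO the highest were MYC at 89.3 RPKM, ODC1 at 83.9 RPKM and NCL at 72.3 RPKM, whose libraries overlapped in the order, and the next was MLX at 14.8 RPKM. In mock nilotinib ODC1 at 48.9 RPKM, MXD4 at 36.1 RPKM and NCL at 29.5 RPKM were the highest, each overlapping the next, and MYC lay below all of their libraries at 19.7 RPKM. In hemin DMSO, ODC1 at 74.9 RPKM and MYC at 74.8 RPKM could not be ordered, and MXD1 at 56.5 RPKM came next. In hemin nilotinib the highest were ODC1 at 56.1 RPKM, NCL at 33.3 RPKM, MYC at 27.1 RPKM and MXD4 at 25.4 RPKM, each overlapping the next. MNT, at 1.53 to 3.64 RPKM, was the last in all 4 groups.

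The summed level of MXD1, MXD3, MXD4 and MXI1 was 29.5 ± 0.4 RPKM in mock DMSO, 66.1 ± 11.2 RPKM in mock nilotinib, 73.8 ± 2.87 RPKM in hemin DMSO and 60.9 ± 10.1 RPKM in hemin nilotinib (SD, n = 3). Mock DMSO was the one group in which MYC transcript exceeded this sum in each library by a wide margin, with a ratio of 3.02 ± 0.319. The ratio was 1.01 ± 0.0321 in hemin DMSO, 0.307 ± 0.0751 in mock nilotinib and 0.457 ± 0.11 in hemin nilotinib, and the libraries of these last groups reached at most 0.388 and 0.57. The deposited FPKM values must give the same ratios, since they rest on the same counts and exon lengths, and are not a second measure of them. Similar sums were made of different genes. MXD1 supplied 76.4% ± 2.6 of the sum in hemin DMSO but 11% ± 0.306 in mock nilotinib, where MXD4 supplied 54.1% ± 4.23. In hemin nilotinib the shares were 41.7% ± 1.42 for MXD4, 23.2% ± 2.18 for MXD3, 19.1% ± 5.74 for MXD1 and 15.9% ± 3.64 for MXI1. These are shares of transcripts, and the proteins were not measured.

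**Figure D3:**
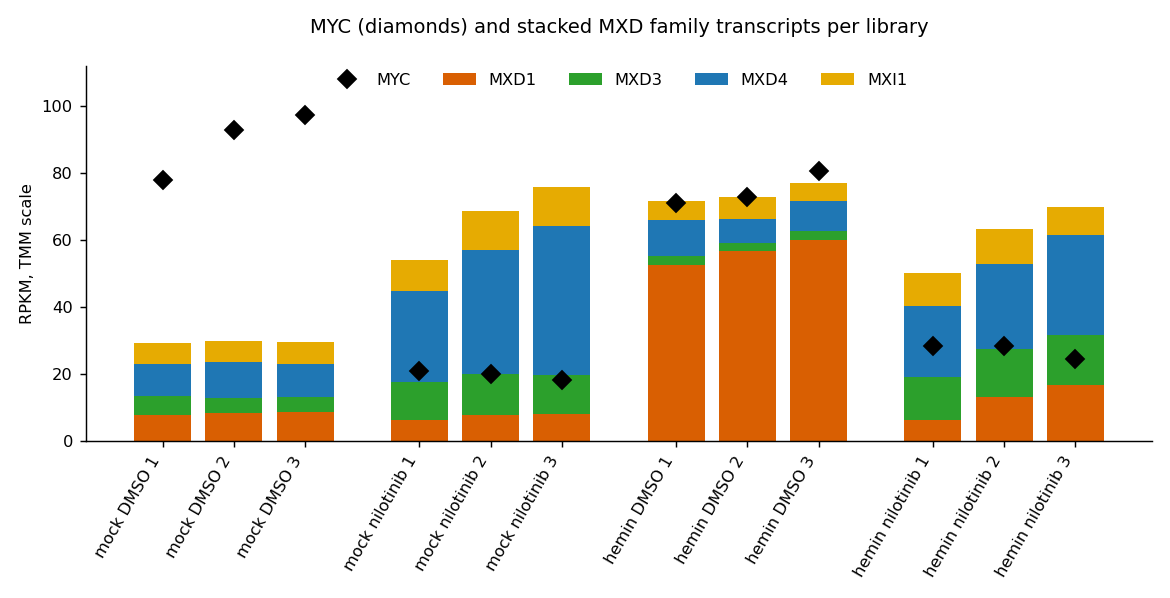
RPKM on the TMM scale per library of MXD1, MXD3, MXD4 and MXI1 as stacked bars, with MYC as black diamonds, for the 12 libraries in 4 groups. Diamonds stand well above the bars in mock DMSO, at the tops of the bars in hemin DMSO, and inside the bars in all 6 nilotinib libraries; the bar of hemin DMSO is mostly MXD1 (76.4%) and that of mock nilotinib mostly MXD4 (54.1%).

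The other genes of the network with the same kind of DNA-binding domain were followed as a list of 5, of which MYCN had too few counts to be tested. MLXIP, the glucose sensor that pairs with MLX, was at 297 ± 2.58 CPM in mock DMSO and 549 ± 49.1 CPM in mock nilotinib. With hemin the groups averaged 117 ± 8.56 CPM and 375 ± 34 CPM, and it rose with nilotinib in both settings (0.89 and 1.68, adjusted p = 3.2e-05 and 1.81e-08). MYCL, a paralog of MYC, fell in both, by 1.42 and 0.76 on the log2 scale (adjusted p = 1.18e-06 and 0.000279). MLXIPL, the paralog of MLXIP, fell by 0.52 with nilotinib alone (adjusted p = 0.0217). Of the 4 tested genes, all were lower with hemin in the absence of nilotinib, with a median of -1.02 against -0.05 over all genes. In that comparison 27.8% of all genes were called lower.

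Genes known from other work as activated by MYC, a list of 40 beside ODC1 and NCL, were mostly lower with nilotinib. Without hemin 31 fell, 3 rose and 6 were not called, with a median of -1.07 where the median of all genes was 0.00; over all genes 21.8% were called lower. HK2, the hexokinase that starts glycolysis, went from 60.8 ± 4.5 CPM to 1.18 ± 0.389 CPM (-5.68, SE 0.254, adjusted p = 2.26e-10). PKM, the pyruvate kinase at the other end of that pathway, went from 609 ± 40.7 CPM to 30.8 ± 1.87 CPM (-4.30, SE 0.196, adjusted p = 2.33e-10). TFRC, the transferrin receptor through which erythroid cells take up iron, rose instead (2.12, SE 0.513, adjusted p = 0.00328), as did UBTF, a factor of ribosomal RNA transcription (1.5, SE 0.134, adjusted p = 2.54e-07). With hemin present, nilotinib gave 19 lower, 6 higher and 15 not called, with a median of -0.40. Over all genes 31.8% were called lower there and 32.4% higher. Without hemin nilotinib replicate 1 the list gave 25 lower and 2 higher, with a median of -0.73. HK2 (-4.24) and PKM (-3.80) fell again, and UBTF reached 425 ± 34.6 CPM from 57.4 ± 1.36 CPM (2.89, SE 0.141, adjusted p = 1.77e-10). TFRC was called there as well (1.83, adjusted p = 0.00493), but its hemin nilotinib libraries were at 2840, 519 and 429 CPM, with replicate 1 far above the others. Without that library TFRC gave 0.43 and was not called (adjusted p = 0.103). Hemin alone gave 15 lower and 8 higher with a median of -0.25, where 27.8% of all genes were called lower and 25.7% higher. Without composition factors hemin alone gave 21 lower and 6 higher. Under nilotinib hemin gave 2 higher and 1 lower, where 3.52% of all genes were called higher and 2.28% lower.

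Of the 31 genes of this list with a promoter entry used here, 15 held CACGTG (48.4%). With nilotinib alone 13 of these 15 were called lower and none higher, and 10 of the 16 without the motif were called lower. With hemin present, 9 of the 15 and 5 of the 16 were called lower. Over all tested genes with an entry used, 30.4% of 1425 with the motif were called lower with nilotinib alone. Without the motif the share was 26.4% of 10453. With hemin present these shares were 37.1% with the motif and 37.3% without it. HK2 carries the motif at 2 positions and SRM, the spermidine synthase of the polyamine pathway, at 1. The motif also stands in front of named genes that rose, MCM2 and RBBP4 with nilotinib in both settings. Examples of either kind are shown with the E-box in capitals, HK2 and SRM for genes that fell and MCM2 for a gene that rose:
HK2, distal site (chr2:74834964-74834993, plus strand): gattgctgcgccCACGTGggagggagcccc
HK2, proximal site (chr2:74835009-74835038, plus strand): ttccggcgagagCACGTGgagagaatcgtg
SRM (chr1:11060200-11060229, minus strand): ccggccgggcccCACGTGgcccctggagcg
MCM2 (chr3:127598388-127598417, plus strand): gctttggtgggtCACGTGaaccacttttcg
DDX21 (chr10:68956604-68956633, plus strand): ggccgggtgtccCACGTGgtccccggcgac
TAPBPL (chr12:6451509-6451538, plus strand): ctttcctgtgtaCACGTGacagagtgcctt
DDX21, a helicase of ribosomal RNA processing, had the pattern over the 12 libraries most like that of MYC, and TAPBPL one of the 3 least like it. SDF2L1 and PLA2G15, next to DDX21 in likeness, had no match in their entries, and neither had MYT1 and MAGIX, the others least like MYC. Whether the motif goes with likeness to MYC was not tested.

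That likeness was measured as Pearson's r of log2 CPM over the 12 libraries among 12494 genes with a mean count of at least 100. The 3 highest values were 0.986 for DDX21, 0.985 for SDF2L1, a protein of the endoplasmic reticulum, and 0.985 for PLA2G15, a lysosomal phospholipase. The 3 lowest were -0.985 for MYT1, a zinc finger factor, -0.984 for TAPBPL, which edits peptides on MHC class I, and -0.982 for MAGIX. DDX21 was at 565 ± 69.2 CPM in mock DMSO and 126 ± 12.2 CPM in mock nilotinib, and at 452 ± 32.9 CPM and 139 ± 29 CPM in the hemin groups. Among the members r with MYC was 0.792 for MLX and for ODC1, 0.761 for MAX, 0.608 for NCL, 0.448 for MXD1, -0.454 for MNT, -0.874 for MXD3, -0.923 for MXI1 and -0.961 for MXD4. The libraries fall into nilotinib and DMSO groups and share their scaling, so r describes these 12 libraries and carries no test.

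Genes known as repressed by MYC were a list of 13 with 12 tested. With nilotinib alone 5 rose and 2 fell, with a median of 0.25, where 20.7% of all genes were called higher and 21.8% lower. With hemin present 1 rose and 4 fell, with a median of -0.19, where 32.4% were called higher and 31.8% lower. Hemin alone raised 8 of the 12 and lowered none, with a median of 1.12, where 25.7% of all genes were called higher. CDKN1A, the cell cycle inhibitor p21, went from 27.7 ± 5.02 CPM in mock DMSO to 356 ± 20.4 CPM in hemin DMSO (3.68, SE 0.196, adjusted p = 2.8e-09). It was at 13.8 ± 2.87 CPM in mock nilotinib and 17.9 ± 3.97 CPM in hemin nilotinib, and fell by 4.31 on the log2 scale with nilotinib under hemin (SE 0.203, adjusted p = 1.21e-10). Like MXD1, it was high in hemin DMSO alone. CDKN1C, a related inhibitor, rose with hemin alone (0.92, adjusted p = 0.00479) and was lower with nilotinib under hemin (-0.99, adjusted p = 0.00222). NDRG1, a gene linked to growth arrest, rose with nilotinib alone (2.01, adjusted p = 5.57e-05) and with hemin alone (1.63, adjusted p = 0.000263). NDRG2, its paralog, rose with nilotinib in both settings (1.16 and 1.34, adjusted p = 0.00225 and 0.000409).

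Around ODC1, the polyamine pathway was followed as 16 genes. With nilotinib 6 fell and 2 rose without hemin, with a median of -0.28, and 9 fell and 2 rose with hemin, with a median of -0.64. Over all genes 21.8% and 31.8% were called lower in these comparisons, and 42.5% and 64.2% in either direction. SRM, which makes spermidine, went from 105 ± 11.2 CPM to 29.2 ± 7.69 CPM without hemin (-1.85, SE 0.284, adjusted p = 6.99e-05) and fell with hemin present as well (-1.30, SE 0.28, adjusted p = 0.00074). ARG2, the mitochondrial arginase that makes ornithine, the substrate of ODC1, fell in both settings (-3.07 and -2.82, adjusted p = 0.00011 in each). Exons of VTI1B cover 37.4% of those of ARG2 on the other strand. ARG1, the cytosolic arginase, rose from 0.179 ± 0.052 CPM to 6.43 ± 2.32 CPM with nilotinib alone (5.17, SE 0.383, adjusted p = 3.01e-08). SMOX, which oxidises spermine, fell in both settings (-1.21 and -2.67, adjusted p = 0.000153 and 2.69e-08), and PAOX, which oxidises acetylated polyamines, rose with nilotinib under hemin (1.52, adjusted p = 1.09e-05). Hemin alone raised 7 of the 16 genes and lowered 2, with a median of 0.26, where 25.7% of all genes were called higher.

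Genes of the corepressor that the MXD proteins recruit were called about as often as the whole table (42.5% with nilotinib alone and 64.2% with hemin present). Of 13 genes for SIN3 and histone deacetylase subunits, 3 rose and 3 fell with nilotinib alone, and 4 rose and 4 fell with hemin present. HDAC1, the catalytic deacetylase, rose with nilotinib alone (0.65, SE 0.131, adjusted p = 0.000768), as did ARID4A, another subunit (0.62, adjusted p = 0.00219). SAP30 (-0.61, adjusted p = 0.00929) and BRMS1 (-0.39, adjusted p = 0.0355) fell. ARID4B, a scaffold of the complex, was at 160 ± 9.98 CPM in hemin DMSO and between 44.6 and 59.8 CPM on average elsewhere, and fell with nilotinib under hemin (-1.42, SE 0.111, adjusted p = 2.36e-08); 14.5% of its exon bases overlap RBM34 on the same strand. SAP18 fell there too (-1.04, adjusted p = 3.58e-06), while the histone-binding subunits RBBP7 (0.62, adjusted p = 0.00247) and RBBP4 (0.50, adjusted p = 0.00502) rose.

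Among 15 genes for coactivators of MYC, 6 fell and 2 rose with nilotinib alone, and 4 fell and 5 rose with hemin present. Over all genes 42.5% and 64.2% were called in either direction. The shares were 21.8% lower and 20.7% higher with nilotinib alone, and 31.8% lower and 32.4% higher with hemin present. RUVBL2, an ATPase of chromatin remodelling complexes, fell in both settings (-1.37 and -1.68, adjusted p = 6.21e-07 and 3.12e-08), and so did its partner RUVBL1 (-1.14 and -0.81, adjusted p = 0.000131 and 0.00126). CREBBP, an acetyltransferase, rose with nilotinib alone (0.59, adjusted p = 0.00183), and CDK9, the kinase that releases paused polymerase, rose in both settings (0.40 and 0.79, adjusted p = 0.0273 and 0.000125). ACTL6A, an actin-related subunit, rose with nilotinib under hemin (1.10, adjusted p = 0.000126).

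Factors known to act on MYC transcription were followed as 13 genes. With nilotinib alone 5 fell and 1 rose, and with hemin present 6 rose and 5 fell, where 42.5% and 64.2% of all genes were called. By direction the shares of all genes were 21.8% lower and 20.7% higher with nilotinib alone. With hemin present they were 31.8% lower and 32.4% higher. MYB, a factor of immature blood cells, went from 307 ± 4.69 CPM in mock DMSO to 36.3 ± 2.22 CPM in mock nilotinib (-3.08, SE 0.189, adjusted p = 4.25e-09). In hemin DMSO it was also low, at 45.3 ± 14 CPM, where the change of MYC was not called. Whether the levels of MYB and MYC are linked was not tested. STAT5A, a factor activated by BCR-ABL1, fell with nilotinib alone (-1.18, SE 0.211, adjusted p = 0.000288) and was higher with nilotinib under hemin (0.99, SE 0.211, adjusted p = 0.000641). GATA1, the master factor of the erythroid lineage, was at 296 ± 28.3 CPM in mock DMSO, 376 ± 22.3 CPM in mock nilotinib, 317 ± 12.2 CPM in hemin nilotinib and 158 ± 27.8 CPM in hemin DMSO, and rose with nilotinib under hemin (1.0, adjusted p = 1.23e-05). E2F1, which drives entry into S phase, rose in that comparison as well (1.52, adjusted p = 9.97e-06). NOTCH1, a receptor that activates MYC in T cells, fell in both settings (-0.87 and -2.23, adjusted p = 0.000717 and 3.19e-08). TCF7L2, the WNT effector, fell under hemin (-1.33, adjusted p = 5.93e-05), and CTCF, an insulator protein, rose in both settings (0.49 and 0.62, adjusted p = 0.0274 and 0.00444).

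Of 14 genes for turnover of the MYC protein, 6 fell and 1 rose with nilotinib alone, and 6 fell and 3 rose with hemin present. Over all genes 42.5% and 64.2% were called in these comparisons. By direction these were 21.8% lower and 20.7% higher with nilotinib alone, and 31.8% lower and 32.4% higher with hemin present. PIM1, a kinase that stabilises MYC and a known target of STAT5, was at 1190 ± 65.4 CPM in mock DMSO and 370 ± 57.9 CPM in mock nilotinib (-1.69, SE 0.238, adjusted p = 3.07e-05). USP36, a nucleolar deubiquitinase of MYC, fell in both settings (-1.25 and -1.19, adjusted p = 5.77e-05 and 4.39e-05). FBXW7, the ubiquitin ligase subunit that marks MYC for degradation, fell as well (-0.41 and -1.49, adjusted p = 0.0321 and 2.83e-07). CIP2A, which protects MYC from dephosphorylation, rose in both (0.58 and 1.27, adjusted p = 0.00691 and 3.85e-06), and AXIN1, a scaffold of MYC degradation, rose under hemin (0.43, adjusted p = 0.00528).

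The last list held 12 proliferation genes. With nilotinib alone 3 rose and 1 fell, with a median of 0.23, where 20.7% of all genes were called higher and 21.8% lower. With hemin present 11 rose and none fell, with a median of 0.74, where 32.4% of all genes were called higher. Hemin alone lowered 8 and raised 1, with a median of -0.66, where 27.8% of all genes were called lower. MCM4, a subunit of the replicative helicase, was at 385 ± 10.2 CPM in mock DMSO, 651 ± 44.3 CPM in mock nilotinib, 579 ± 220 CPM in hemin nilotinib and 126 ± 24.2 CPM in hemin DMSO. It rose with nilotinib without hemin (0.76, SE 0.209, adjusted p = 0.00791) and with it (2.20, SE 0.218, adjusted p = 2.91e-07), as did MCM2 (0.73 and 1.04, adjusted p = 0.000619 and 1.02e-05). PCNA, the sliding clamp of DNA polymerase, rose under hemin (1.91, adjusted p = 6.93e-06). Without hemin nilotinib replicate 1 these values under hemin were 1.88 for MCM4 and 1.47 for PCNA, both called. CCNB1, the mitotic cyclin, fell with nilotinib alone (-0.63, adjusted p = 0.00712) and rose with nilotinib under hemin (0.68, adjusted p = 0.00256).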

How the data were processed

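Transcripts of K562 were sequenced by the authors as paired 150-base reads. The deposited table holds read counts per gene for the 12 libraries, and a second deposited table holds FPKM values (fragment counts scaled by the authors to gene length and library size), used here only in alternatives and for ratios. The table of the authors' group means was not used. The submitters' processing notes name GRCh38.p12, DESeq and DESeq2; the aligner, the counting tool and the use of strand are not given in the sources used here. Gene IDs, starts and ends of all 58735 genes were those of GENCODE 29.

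Counts were tested with edgeR 4.0.16 (R 4.3.3): TMM factors, filterByExpr (10 counts, 15 in total; 20821 genes kept), a quasi-likelihood fit of 1 mean per group over all 12 libraries, and Benjamini-Hochberg adjustment with a threshold of 0.05. Total counts of 33457078 to 50506990 put 3 counts, the most a count of 0 allows, at under 0.1 CPM. With 3 against 3 libraries an exact permutation test cannot go below p = 0.1, so none was used. Replicates are the submitters' biological replicates, but nothing says how the cultures were kept apart. Every pair of replicates differed by far more than counting noise.

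Alternatives were DESeq2 1.42.0, other scalings and filters, limma 3.58.1 on log2(FPKM + 1) and log2(FPKM + 0.1), a fit of only the 6 libraries compared, a replicate block, and leaving out single libraries in turn. Deviations of same-numbered libraries correlated above 0.1 in every pair only between hemin nilotinib and mock nilotinib (0.263, 0.199 and 0.254), so the block counts as a pairing there, as a hint from the data. Between mock DMSO and either mock nilotinib or hemin DMSO, same-numbered pairs gave 0.085 to 0.104 and all other pairs were negative. A weaker pairing there is thus not excluded. The members and gene lists were chosen with earlier results of these data known. Genes were named by a rule: all members; per list and nilotinib comparison up to 2 genes that rose and 2 that fell most, with a mean count of at least 100 and libraries that did not overlap; and the 3 genes most and least like MYC. 1 gene of the coactivator list is not reported here and was left out of its counts. The script was tested on simulated data.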

Additional observations from a re-analysis of the deposited data

Results flagged for a closer look

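The effect of nilotinib differed between cells with and without hemin for 5 members, by edgeR's test of the interaction (log2 fold change with hemin minus that without, adjusted p under 0.05): MYC 0.71, MXD3 1.16, MNT 0.98, NCL 1.43 and MXD1 -2.04. MXD1 was at 359 ± 23.6 CPM in hemin DMSO, where the other groups averaged 46.1 to 76.4 CPM. MNT also stood apart in hemin DMSO alone, in the other direction. Hemin nilotinib cells had been in the drug for longer than mock nilotinib cells. Hemin and time therefore cannot be told apart in the interaction.

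The same test was passed by 28 of the 45 named genes of the lists, which were picked for large changes in either nilotinib comparison, so that their share is not a result. Of the relatives of MYC and MLX, the interaction was 0.66 for MYCL, 0.80 for MLXIP and 0.68 for MLXIPL. Of the coactivators it was -0.58 for CREBBP and 1.43 for ACTL6A. Of the corepressor it was -0.69 for SAP18, -0.83 for ARID4A and -1.68 for ARID4B. Of the turnover genes it was -1.08 for FBXW7, 0.69 for CIP2A and 1.20 for PIM1. Among factors of MYC transcription the values were 2.17 for STAT5A, 1.16 for E2F1, 2.81 for MYB, 0.66 for GATA1, -1.73 for TCF7L2 and -1.36 for NOTCH1. Of the genes known as MYC targets, UBTF had 1.39, HK2 1.45, CDKN1A -3.31, CDKN1C -1.28 and NDRG1 -1.81. TFRC did not pass with all libraries (-0.29, adjusted p = 0.791). Without hemin nilotinib replicate 1 the interaction of TFRC was -1.69 and passed (adjusted p = 0.000507). In the polyamine pathway SMOX had -1.46, PAOX 1.39 and ARG1 -2.84. Among proliferation genes PCNA had 1.46, MCM4 1.45 and CCNB1 1.31. Over all genes tested the interaction was called for 30.1%.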

How the results depend on the processing

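The calls of MYC, MXD3, MXD4 and MXI1 with nilotinib, with and without hemin, held in all 22 alternatives; MYC ranged from -2.31 to -2.07 without hemin and from -1.51 to -1.29 with it. The call of MYC with hemin under nilotinib did not hold in most: it was 0.45 with RLE factors, 0.42 without composition factors, 0.46 with all genes of at least 1 count, 0.42 and 0.44 with limma on log2(FPKM + 1) and log2(FPKM + 0.1), 0.47 in the 6 libraries alone, and 0.38 to 0.52 with 1 library left out, with no call in the first 6 of these settings. With hemin alone MYC passed without composition factors (-0.49), without mock DMSO replicate 1 (-0.42) and without hemin nilotinib replicate 3 (-0.31), in a range of -0.42 to -0.21 over the libraries left out. Members past the threshold for hemin under nilotinib numbered 1, and 0 with RLE factors, without composition factors, with either limma fit and in the 6 libraries alone, 2 with all genes of at least 1 count and with the replicate block, and 0 to 1 with 1 library left out (0 without any mock DMSO library, hemin DMSO replicate 3, mock nilotinib replicates 2 and 3 or hemin nilotinib replicate 2). Genes past it there numbered 1208, and 1902 with DESeq2, 1987 with all genes of at least 1 count, 741 and 694 with the limma fits, 183 in the 6 libraries alone, and 213 (without mock nilotinib replicate 2) to 2793 (without hemin nilotinib replicate 1) with 1 library left out. Of values that changed sign, none was called: without hemin nilotinib replicate 1, NCL with nilotinib under hemin was -0.23 (range over libraries left out -0.23 to 0.38), and with hemin under nilotinib NCL was -0.21 (to 0.40) and ODC1 -0.02 (to 0.37); MXI1 with hemin alone was 0.00 with upper-quartile factors; and the interaction of MXI1 was 0.12 without composition factors, 0.02 without mock DMSO replicate 1 and 0.03 without hemin nilotinib replicate 3 (range -0.18 to 0.03). The causes were not tested. Upper-quartile factors shifted the median of all genes by 0.11 with nilotinib alone and 0.12 with hemin alone; leaving composition factors out shifted it by -0.239 with hemin alone and 0.178 with nilotinib under hemin. Elsewhere the replicate block changed only the call of MLX with nilotinib under hemin among the members.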
